A study of Homo sapiens with 15 samples.

Results

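The 9 genes CD44, EPCAM, CD24, PROM1, ALCAM, CD9, ALDH1A1, ALDH1A3 and CEACAM6 were taken as a list of surface proteins and enzymes used to mark colorectal stem and tumour-initiating cells. They were found in the count table by their Ensembl gene identifiers. Of the 9, 8 had a row among the 31352 genes of the table, and 5 (CD44, EPCAM, ALCAM, CD9 and ALDH1A3) passed a filter on low counts that 15122 genes passed in all. PROM1, ALDH1A1 and CEACAM6 had too few reads to be tested, with 17, 4 and 6 reads over all 15 libraries. The identifier of CD24 had no row and CD24 was not analysed here.

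The study sequenced polyadenylated RNA from human cells in 5 groups of 3 libraries. The control group, EV, is an isogenic line with an empty vector. The groups NICD1, NICD2, NICD3 and NICD4 express, under doxycycline, the intracellular domain of the receptor of the same number (NOTCH1 to NOTCH4), which is the part that enters the nucleus when a receptor is activated. The comparison asks how each activated receptor is followed by changes in RNA. The labels name HCT116, a human colorectal carcinoma line, as the cell line of every group, and the description field of each sample names U373, a line from a glioma, instead. The dose and time of doxycycline are not labelled, nor is it stated whether the EV cells were treated or whether each group is a clone or a pool. The labels do not say whether the libraries of a group came from separate cultures, so the p-values measure only the spread between these libraries, which may be technical. For NICD4 replicate 1, the title and the description say NICD4 and 2 other fields say NICD3. It was kept in NICD4. The changes of the tested markers between NICD4 and EV are also given without it, and of 49 markers and named genes called in NICD4 against EV, 48 were called in the same direction without it, the exception being CD24P4.

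The libraries held between 11630195 and 27704492 counted reads. Levels are in CPM, a gene's count relative to the reads of its library, after scaling by the trimmed mean of M values (TMM), whose factors were 1.21 to 1.32 in EV and 0.793 to 1.09 in the NICD libraries. A change is a difference of log2 (scaled count plus 1) fitted in limma, and a gene is called where p, adjusted over all genes tested, is under 0.05. HES1, a transcriptional repressor and a direct NOTCH target, had a mean level of 19.4 CPM in EV and of 39.6, 105, 48.7 and 57.1 CPM in NICD1 to NICD4. Of the colorectal markers, CDX2, the intestinal homeobox factor, was at 17.8 ± 0.91 CPM (SD, n = 3) in EV and between 37.7 and 60.7 CPM in the NICD groups, and the intestinal cadherin CDH17 was at 0 to 5 reads a library. Of the glial markers, the intermediate filament gene GFAP was at 1.63 ± 0.30 CPM in EV, and SOX2 and OLIG2 were at 0 to 2 and 0 to 1 reads a library. The largest absolute log2 change of GFAP against EV in any NICD group was 1.31, outside NICD2 and NICD3. GFAP was called lower in NICD2 and higher in NICD3. These calls were lost when some single libraries were left out (adjusted p = 0.0677 to 0.0995 in NICD2 and 0.0598 to 0.132 in NICD3). Those with most reads, named after their values were seen, were NES (nestin), at 29.7 CPM in EV and 25.8, 22, 22.7 and 36.2 CPM in NICD1 to NICD4, and the glutamate transporter SLC1A3, at 20.3 CPM in EV, 50.2 CPM in NICD2 and 14.1 to 23.7 CPM in the other NICD groups. Summed over 24 colorectal differentiation markers in the table, levels were 39.8 to 49.0 CPM in the EV libraries and 53.8 to 78.1 CPM in the NICD libraries. CDX2 made up much of these sums, and of the 7 markers tested 1, 1, 2 and 2 were called higher in NICD1 to NICD4 and 4, 4, 3 and 3 lower, with median log2 changes of -0.85, -0.59, -0.69 and -0.15. Among those lower in all 4 groups were the goblet cell mucin MUC2, from 0.867 CPM in EV to at most 0.160 CPM, and the brush border peptidase ANPEP, from 0.749 CPM to at most 0.169 CPM. Summed over 17 astrocyte and glioma markers, levels were 56.3 to 58.9 CPM in EV and 48.9 to 88.3 CPM in the NICD libraries. Single genes made up large parts of these sums. SLC1A3 did so in NICD2, and in NICD3 ALDH1L1 did, at 30.0 CPM beside 1.51 CPM in EV. Of the 6 tested, 1, 2, 3 and 3 were called higher in NICD1 to NICD4 and 2, 3, 1 and 0 lower. Their median log2 changes were -0.17, -0.48, 0.67 and 0.78. For 13 blood cell markers the sums were 19.2 to 22.4 CPM in EV and 8.47 to 16.0 CPM in the NICD libraries, and the T cell receptor genes CD3D and CD3E fell from 6.14 and 3.59 CPM in EV to at most 0.0484 and 0.106 CPM in any NICD group. The list moved in both directions. Of its 9 tested genes, 5, 5, 4 and 5 were called higher in NICD1 to NICD4 and 2, 4, 4 and 3 lower. Their median log2 changes were 0.91, 0.87, 0.72 and 1.56. For 15 fibroblast and endothelial markers the sums were 16.9 to 22.5 CPM in EV and 9.20 to 16.2 CPM in the NICD libraries. The part of these shifts in the results below was not tested.

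Cells in the crypts of the colon renew from stem cells at the crypt base, where NOTCH signalling keeps progenitors from taking a secretory fate. Colorectal tumours contain cells that reform a tumour when transplanted, and antibodies to the proteins of CD44, EPCAM, PROM1 (CD133), CD24 and ALCAM (CD166), or an assay of aldehyde dehydrogenase activity, have been used to sort them. The markers do different things: CD44, EPCAM, ALCAM and CEACAM6 hold cells to the matrix or to each other, CD9 organises membrane complexes, PROM1 sits on membrane protrusions, and ALDH1A1 and ALDH1A3 make retinoic acid.

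ALDH1A3 and ALCAM were higher than EV in all 4 NICD groups and CD44 differed from EV in all 4, so the 250 bases upstream of these 3 genes are shown, from RefSeq on GRCh38.p14. They lie at chr15:100879581-100879830 for ALDH1A3, chr3:105366659-105366908 for ALCAM and chr11:35138921-35139170 for CD44, all on the plus strand, and are written 5′ to 3′ with the last base next to the annotated gene start. Capitals mark a match to CACGNG on either strand, the letters of a site bound by HES and HEY repressors.

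ALDH1A3: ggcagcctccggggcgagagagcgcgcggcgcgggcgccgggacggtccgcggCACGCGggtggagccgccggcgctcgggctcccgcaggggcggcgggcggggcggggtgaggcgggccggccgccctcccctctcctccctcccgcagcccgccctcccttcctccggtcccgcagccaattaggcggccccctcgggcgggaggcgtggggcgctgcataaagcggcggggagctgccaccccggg

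ALCAM: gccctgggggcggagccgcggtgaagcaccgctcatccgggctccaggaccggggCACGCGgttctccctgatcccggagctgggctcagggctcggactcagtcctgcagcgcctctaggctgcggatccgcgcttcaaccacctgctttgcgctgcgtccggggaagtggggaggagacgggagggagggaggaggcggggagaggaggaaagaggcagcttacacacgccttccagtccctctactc

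CD44: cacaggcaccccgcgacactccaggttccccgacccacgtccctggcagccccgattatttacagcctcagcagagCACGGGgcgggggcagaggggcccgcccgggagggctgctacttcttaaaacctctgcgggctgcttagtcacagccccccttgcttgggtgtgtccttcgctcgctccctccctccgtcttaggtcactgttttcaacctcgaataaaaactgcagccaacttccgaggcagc

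Each of the 3 windows held 1 match, with its first base at -197 (ALDH1A3), -195 (ALCAM) and -174 (CD44) from the gene start. CACGNG was found in 26.7% of 35116 promoter windows of this length. TGGGAA, the core letters of the site of RBPJ (the DNA-binding partner of NICD), was found in none of these 3 windows and in 20.8% of all windows, also counted on both strands. CACCTG, an E-box bound by ZEB and SNAI factors, was found once in the ALCAM window and in 17.5% of all windows, and it shares no base with the CACGNG match there. A match is only a match of letters, and 8 of the 9 markers had an entry in the promoter table, EPCAM having none. CACGNG also matched in windows of ALDH1A1, CEACAM6 and PROM1, which had too few reads to be tested, and of CD24. It was thus not particular to markers that changed, and no window of CD9 held it. TGGGAA matched in windows of CD9, CD24 and CEACAM6, and CACCTG in windows of CD9, CD24 and PROM1.

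Against EV, CD44, ALCAM, EPCAM and ALDH1A3 were called higher in NICD1, which is 4 of the 5 tested markers, where 75.4% of all genes tested were called (35.6% higher and 39.8% lower). In NICD2, 3 were called higher (ALCAM, EPCAM and ALDH1A3) and CD44 lower, against 59.5% of all genes (29.6% higher and 29.9% lower). In NICD3 the same 4 markers as in NICD1 were called higher, against 69.2% of all genes (33.0% higher and 36.2% lower). In NICD4, 3 were called higher (CD44, ALCAM and ALDH1A3) and CD9 lower, against 80.9% of all genes (37.4% higher and 43.6% lower). The share of markers called, 4 of 5 in each comparison, was thus near the share of all genes in NICD4 and NICD1. The median log2 change of the 5 markers was 1.39, 0.88, 0.60 and 0.29 in NICD1 to NICD4, beside -0.08, -0.03, -0.07 and -0.12 over all genes tested. With libraries scaled by total read count alone, the markers' medians were 0.94, 0.59, 0.18 and -0.25. All 4 comparisons share the EV libraries. In such bulk RNA, fewer cells with a marker and less of its RNA per cell cannot be told apart. An F-test over the 4 NICD groups called 5 of 5 markers, where 67.9% of all genes were called.

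**Figure D1:**
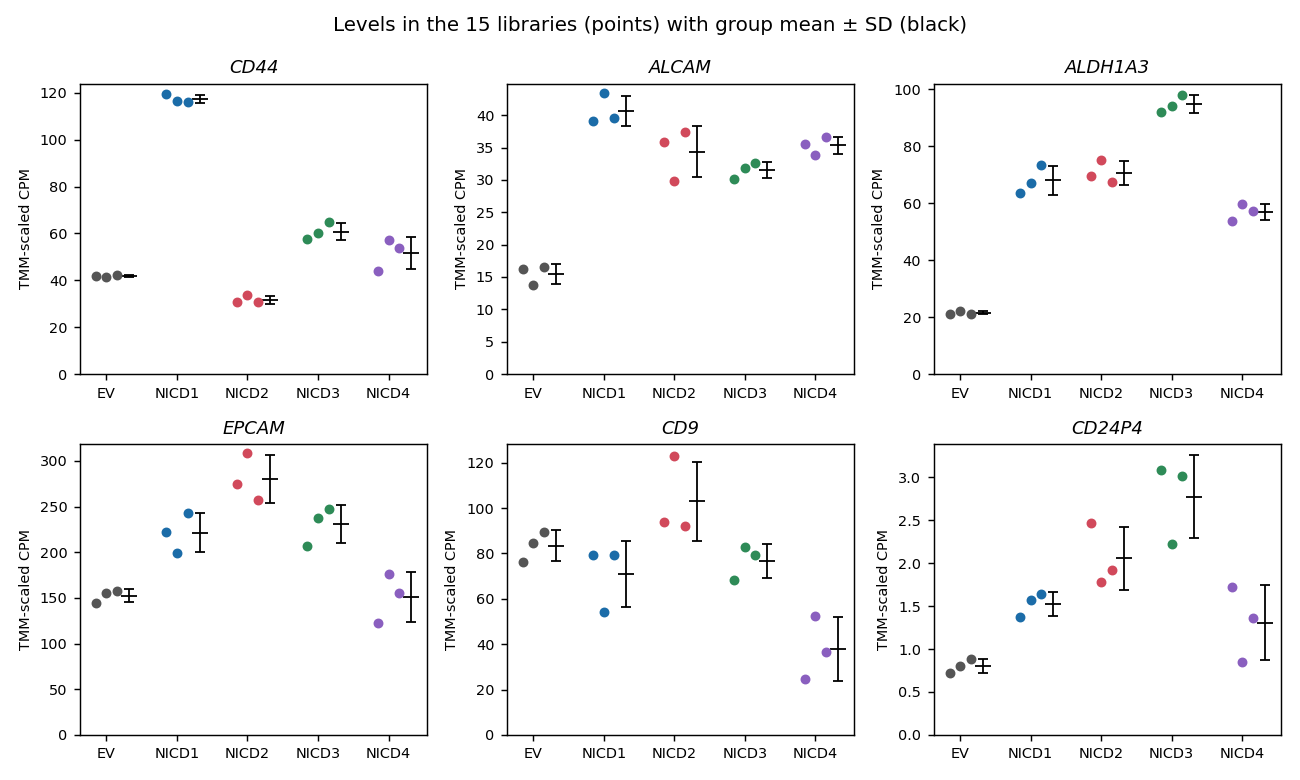
TMM-scaled CPM (vertical axes, from 0) of the 5 tested markers and of CD24P4, a copy of CD24, in all 15 libraries (points). Black bars give the mean ± SD of the 3 libraries of a group. CD44 is highest in NICD1 (mean 117 CPM) and lowest in NICD2 (31.6 CPM), ALDH1A3 is highest in NICD3 (94.6 CPM), and CD9 is lowest in NICD4 (37.9 CPM).

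CD44 (chromosome 11, 35160417 to 35253949 on GRCh37) encodes the receptor for hyaluronan, a sugar polymer of the extracellular matrix, and is itself used as a crypt stem cell marker. CD44 was 2.80 times higher in NICD1 than in EV and 1.45 times higher in NICD3, and it was lower in NICD2, at 0.756 of the EV level. Its level was 41.9, 41.4 and 42.3 CPM in the EV libraries and 119, 117 and 116 CPM in the NICD1 libraries. The NICD2 libraries were at 30.6, 33.6 and 30.7 CPM, those of NICD3 at 57.4, 60.1 and 64.8 CPM, and those of NICD4 at 43.8, 57.1 and 53.8 CPM. No NICD library overlapped the range of EV, and NICD2 was the group whose 3 libraries all lay below it. The log2 change was 1.49 in NICD1 (adjusted p = 4.66e-09), -0.40 in NICD2 (adjusted p = 0.00141), 0.54 in NICD3 (adjusted p = 0.000102) and 0.29 in NICD4 (adjusted p = 0.0075), each with a standard error of 0.0893. The order of the means was NICD1, NICD3, NICD4, EV, NICD2, and all 6 differences between NICD groups were called. NICD2 was below NICD1 by a log2 difference of -1.89 (95% confidence interval -2.08 to -1.70). NICD4 was below NICD3 by -0.24 (adjusted p = 0.0353), and this call was lost when NICD4 replicate 1, NICD3 replicate 2 or 3, or EV replicate 3 was left out (adjusted p = 0.16, 0.0723, 0.136 and 0.054). It was also lost without the filter on low counts (adjusted p = 0.0905), when only those groups were fitted (adjusted p = 0.123), and when the trend of change with GC content was removed, which left a difference of -0.04 (adjusted p = 0.688). The change of NICD4 against EV was 0.40 without NICD4 replicate 1 and 0.69 with the GC trend removed. When libraries were scaled by total read count alone, the change in NICD3 was 0.12 (adjusted p = 0.438) and that in NICD4 turned to -0.25 (adjusted p = 0.0919), while NICD1 stayed higher (1.03) and NICD2 lower (-0.69). Counts per gene do not separate the standard form of CD44 from its variant-exon forms.

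Of 17 tested genes listed as CD44 ligands, binding partners, proteases or splicing factors, 5, 7, 7 and 6 were called higher in NICD1 to NICD4 and 9, 8, 9 and 8 lower, with median log2 changes of -0.21, -0.20, -0.46 and -0.43. The background for this and the later lists is that 35.6%, 29.6%, 33.0% and 37.4% of all genes tested were called higher and 39.8%, 29.9%, 36.2% and 43.6% lower. HAS2, a synthase of hyaluronan, had no read in EV and 21, 19, 104 and 5 reads in NICD1 to NICD4, which is at least 11.9, 8.51, 42.9 and 3.66 times higher when 3 reads over the EV group are taken as the floor. Its call in NICD4 was lost when any EV library, or NICD4 replicate 2 or 3, was left out (adjusted p = 0.0673 to 0.183). MMP7, a secreted protease of intestinal tumours, had no read in EV either and was at least 19.7, 14.9 and 22.7 times higher in NICD2, NICD3 and NICD4. MMP9, a protease that docks on CD44, rose from the EV level of 0.608 CPM to 4.79, 1.87, 3.32 and 5.59 CPM. ESRP1, the epithelial splicing factor that favours the variant exons of CD44, rose from the EV level of 26 ± 0.98 CPM to 75.1 ± 2.5, 72.4 ± 4.2, 72.4 ± 2.7 and 61.5 ± 0.91 CPM, also in NICD2, where CD44 was lower. Its paralog ESRP2, named here after its values were seen, was at 41.3 CPM in EV. ESRP2 was called lower in NICD1, NICD3 and NICD4 (31.95, 30.1 and 28.1 CPM) and was at 36.0 CPM in NICD2 (adjusted p = 0.0752). SRGN, a proteoglycan that CD44 binds, had 58 reads in EV and 1 read each in NICD1 and NICD4, a ratio of 0.0293 (exact 95% interval 0.000728 to 0.17) and 0.0379 (0.000943 to 0.22). ADAM17, a protease that cuts CD44 and EPCAM from the surface, was at 5.40 ± 2.0 CPM in EV and fell in NICD1, NICD3 and NICD4, to 1.71, 1.52 and 1.45 CPM. In NICD2 ADAM17 was at 2.56 ± 0.97 CPM, its libraries overlapped EV, and its call (log2 change -1.06, adjusted p = 0.0347) was lost when EV replicate 2 or 3, or NICD2 replicate 1 or 3, was left out (adjusted p = 0.0776 to 0.138).

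The genes whose levels followed CD44 most closely over the 15 libraries were MALL (r = 0.93), SPNS2 (r = 0.91) and TNFRSF1A (r = 0.91), where r is Pearson's correlation of log2 scaled values, given as a description. MALL, which encodes a protein of membrane rafts, was at 124, 232, 113, 184 and 158 CPM in EV and NICD1 to NICD4, so that NICD1 was highest and NICD2 lowest as for CD44.

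ALCAM (chromosome 3, 105085753 to 105295744 on GRCh37) encodes an adhesion molecule of the immunoglobulin superfamily that binds itself on neighbouring cells. It was 2.62, 2.21, 2.04 and 2.28 times higher than EV in NICD1 to NICD4. Its level was 16.3, 13.8 and 16.5 CPM in the EV libraries. The NICD1 libraries were at 39.1, 43.4 and 39.5 CPM and the NICD2 libraries at 35.8, 29.9 and 37.4 CPM. The NICD3 libraries were at 30.2, 31.8 and 32.6 CPM and the NICD4 libraries at 35.5, 33.9 and 36.6 CPM. All 12 NICD libraries lay above all 3 EV libraries. The log2 changes were 1.39, 1.14, 1.03 and 1.19 (standard error 0.0958), with adjusted p-values of 1.96e-08, 1.82e-07, 4.77e-07 and 6.8e-08. In order, the means ran NICD1, NICD4, NICD2, NICD3, EV, and neighbours among the 4 NICD groups did not pass the test. With the GC trend removed, NICD4 was above NICD2 by 0.53 (adjusted p = 0.00364). NICD2 was below NICD1 by -0.25 in the fit as described, without a call, and this difference was called under 8 alternatives (adjusted p = 0.00652 to 0.0484). The widest difference, NICD3 below NICD1 by -0.37 (adjusted p = 0.0333), lost its call when any library of NICD1 or NICD3 was left out (adjusted p = 0.054 to 0.143), under total read count scaling (0.0618) and without the filter on low counts (0.0841). Total read count scaling left changes of 0.94, 0.86, 0.61 and 0.65, all called, and removal of the trend with GC content gave 1.99, 1.45, 1.51 and 1.98. Without NICD4 replicate 1 the change in NICD4 was 1.18.

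The list of ALCAM and related adhesion molecules has 16 tested genes and holds ALCAM itself. Of these, 9, 7, 8 and 9 were called higher and 4, 6, 4 and 1 lower, with median changes of 0.37, 0.09, 0.26 and 0.36. The medians turned negative under total read count scaling, at -0.09, -0.19, -0.16 and -0.19. JAM2, a junctional adhesion molecule, rose from the EV level of 0.221 CPM to 1.18, 1.22, 0.902 and 0.890 CPM. MCAM (CD146), a close relative of ALCAM, fell from 72.1 ± 7.9 CPM to 42.2, 31.2, 53.4 and 38.9 CPM. NECTIN1, an adherens junction protein, was called higher in NICD1, NICD3 and NICD4 (86.7, 65.2 and 100 CPM, against 39.9 CPM in EV) and was at 35.8 CPM in NICD2 (adjusted p = 0.2), where it was called lower under total read count scaling (-0.44) and with the GC trend removed (-0.46). NECTIN4, of the same family, was called lower in NICD1, NICD2 and NICD3 (8.18, 4.68 and 8.16 CPM, against 12.6 CPM in EV). It was at 11.3 CPM in NICD4 (adjusted p = 0.281), where the same 2 alternatives called it lower (-0.70 and -0.59). The genes closest to ALCAM in pattern were EPN3 (r = 0.99), the long noncoding RNA RAB17-DT (r = 0.99) and CEBPB (r = 0.98) over 15 libraries. EPN3, an endocytic adaptor of epithelia, was at 1.70 CPM in EV and 20.5, 13.2, 11.7 and 16.6 CPM in the NICD groups, and CEBPB, a transcription factor, at 11.9 and 38.6, 32.7, 30.7 and 29.9 CPM.

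**Figure D2:**
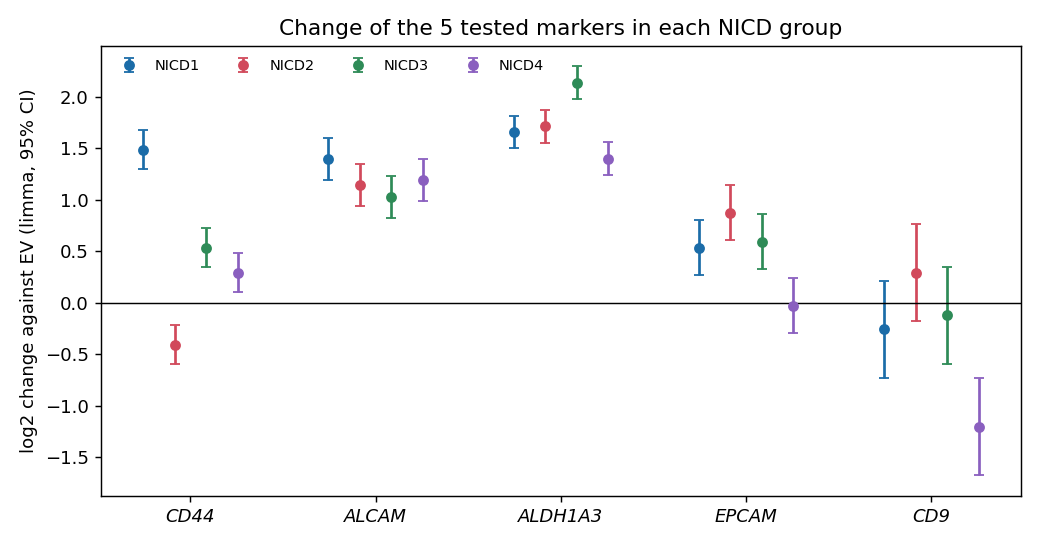
Fitted log2 change against EV (vertical axis) of the 5 tested markers in NICD1 to NICD4, with 95% confidence intervals from limma (3 libraries a group). The intervals of ALCAM and ALDH1A3 lie above 0 in all 4 groups, CD44 lies below 0 in NICD2 (-0.40), and CD9 lies below 0 in NICD4 (-1.20).

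EPCAM (chromosome 2, 47572297 to 47614740 on GRCh37) encodes the epithelial cell adhesion molecule, a surface protein of simple epithelia and carcinomas that is cut by membrane proteases. It was 1.45, 1.84 and 1.51 times higher than EV in NICD1, NICD2 and NICD3, and in NICD4 its mean was 151 CPM beside 152 CPM in EV. The EV libraries were at 144, 155 and 158 CPM. Those of NICD1 were at 222, 199 and 243 CPM and those of NICD2 at 275, 309 and 258 CPM. Those of NICD3 were at 207, 238 and 247 CPM and those of NICD4 at 122, 176 and 155 CPM. NICD1, NICD2 and NICD3 did not overlap EV, whereas the NICD4 libraries spread on both sides of it. The log2 changes were 0.54, 0.88 and 0.59 in the first 3 groups (standard error 0.125, adjusted p = 0.00128, 3.81e-05 and 0.000679). In NICD4 the change was -0.03 (95% confidence interval -0.29 to 0.24, adjusted p = 0.838), and 0.11 without NICD4 replicate 1. NICD4 was below NICD1, NICD2 and NICD3 by -0.56, -0.90 and -0.62, and all 3 differences were called, also without NICD4 replicate 1 (-0.42, -0.76 and -0.48). The first of them was not called when only those groups were fitted (adjusted p = 0.0611). NICD2 was above NICD1 by 0.34 (adjusted p = 0.0446), a call lost when any of NICD1 replicate 1 or 2, NICD2 replicate 1 or 2, NICD3 replicate 2 or 3, NICD4 replicate 3 or EV replicate 3 was left out (adjusted p = 0.0525 to 0.176). That call was also lost without the filter on low counts (adjusted p = 0.0613). NICD3 and NICD1 overlapped and did not pass the test. EPCAM depended on the scaling: by total read count the changes were 0.08, 0.59, 0.18 and -0.57, of which the rise in NICD2 and a fall in NICD4 were called, and with the GC trend removed NICD4 was at 0.22 (adjusted p = 0.0457).

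The list of EPCAM and its partners has 15 tested genes and holds EPCAM itself. Of these, 11, 10, 11 and 10 were called higher in NICD1 to NICD4 and 3, 2, 2 and 4 lower. Their medians were 0.99, 0.88, 1.05 and 0.85, the one in NICD2 being the change of EPCAM. The medians were 0.53, 0.59, 0.63 and 0.30 under total read count scaling. CLDN7, the tight junction claudin that binds EPCAM, rose from the EV level of 36.7 ± 2.5 CPM to 158 ± 7.5, 179 ± 4.3, 151 ± 7.4 and 147 ± 4.4 CPM. ST14 (matriptase), a membrane protease that cleaves EPCAM, rose from 53.8 ± 0.56 CPM to 301 ± 33, 171 ± 8.0, 272 ± 18 and 293 ± 53 CPM. PRSS8 (prostasin), its partner protease, rose from 18.0 CPM to between 51.4 and 53.8 CPM. CDH1, which encodes E-cadherin, rose from 3.76 ± 0.20 CPM to 14.5, 15.2, 14.7 and 12.5 CPM. These 4 genes were called higher in NICD4 also, where EPCAM did not pass the test. Closest to EPCAM in pattern were OCLN (r = 0.98), MBD2 (r = 0.98) and DHRS7 (r = 0.98) over 15 libraries. OCLN, the tight junction protein occludin, was at 8.91 CPM in EV and 12.8, 17.4, 14.4 and 9.09 CPM in NICD1 to NICD4.

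CD9 (chromosome 12, 6308881 to 6347427 on GRCh37) encodes a tetraspanin, a membrane protein that gathers integrins and other partners. CD9 fell in NICD4, to 0.435 of the EV level, and did not pass the test in NICD1, NICD2 or NICD3. The EV libraries were at 76.0, 84.4 and 89.6 CPM and the NICD4 libraries at 24.5, 52.6 and 36.6 CPM. Those of NICD1 were at 79.3, 54.0 and 79.1 CPM, those of NICD2 at 93.7, 123 and 92.0 CPM, and those of NICD3 at 68.3, 82.7 and 79.1 CPM. All NICD4 libraries lay below all others. The log2 change in NICD4 was -1.20 (standard error 0.22, adjusted p = 0.00014), and -0.93 without NICD4 replicate 1, which was the lowest library. In NICD1, NICD2 and NICD3 the changes were -0.25 (95% confidence interval -0.72 to 0.22), 0.29 (-0.18 to 0.76) and -0.12 (-0.59 to 0.35). NICD4 was also below NICD1, NICD2 and NICD3, by -0.95, -1.5 and -1.08, all called, and by -0.67, -1.22 and -0.81 without NICD4 replicate 1, also called. The difference from NICD1 was not called when only those groups were fitted (adjusted p = 0.0718). The order of the means was NICD2, EV, NICD3, NICD1, NICD4, and no neighbours above NICD4 differed by the test. NICD2 was above NICD1 by 0.55 without a call (adjusted p = 0.0622). Some alternatives called this difference (adjusted p = 0.0156 to 0.0473). NICD3 was below NICD2 by -0.42 (adjusted p = 0.214), which was called when only those groups were fitted (adjusted p = 0.0363). Under total read count scaling NICD1 was called lower than EV as well, at -0.71 (adjusted p = 0.028).

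The list of tetraspanins and CD9 partners has 26 tested genes and holds CD9 itself. Of these, 14, 12, 13 and 14 were called higher in NICD1 to NICD4 and 9, 4, 7 and 7 lower, with medians of 0.32, 0.23, 0.30 and 0.61. Under total read count scaling the medians were -0.13, -0.05, -0.11 and 0.06. CD82, a tetraspanin described as a suppressor of metastasis, rose from the EV level of 1.84 ± 0.33 CPM to 5.95, 3.85, 4.34 and 10.1 CPM, and was highest in NICD4, where CD9 was lowest. TSPAN1 rose from 4.33 CPM to 20.6, 16.5, 19.4 and 8.91 CPM. TSPAN12, a tetraspanin of the FZD4 receptor complex, was called lower in NICD1 (2.83 CPM, against 5.25 CPM in EV) and NICD4 (1.85 CPM). Its call in NICD1 was lost with the GC trend removed (adjusted p = 0.12) and without NICD1 replicate 2 (adjusted p = 0.0621). TSPAN8, which forms a complex with EPCAM and CLDN7, had 2 reads in EV and 9, 45, 18 and 6 reads in the NICD groups, a ratio of 30.2 in NICD2 (exact 95% interval 7.89 to 257). The genes closest to CD9 in pattern were NCL (r = 0.99), CHMP2B (r = 0.99) and OMA1 (r = 0.98). NCL, which encodes the nucleolar protein nucleolin, was at 1490, 1436, 1658, 1459 and 1115 CPM in EV and NICD1 to NICD4.

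CD24 encodes a small glycosylated protein anchored in the membrane by a lipid. A row was held for CD24P4 (chromosome Y, 21154139 to 21154595 on GRCh37), a processed copy of CD24 whose 243-base transcript is identical to that of CD24 at 241 bases (99.2%). Reads that cover only identical bases of that stretch cannot be assigned to the gene or to the copy. The row is therefore given as uncertain and not as a measurement of CD24. It held 484 reads in all, between 13 and 82 a library. Its level was 0.725, 0.802 and 0.880 CPM in EV. It was 1.37, 1.57 and 1.64 CPM in NICD1, 2.47, 1.78 and 1.92 CPM in NICD2, and 3.08, 2.22 and 3.02 CPM in NICD3. NICD4 was at 1.72, 0.848 and 1.36 CPM and overlapped EV, and the other NICD groups lay above EV. The log2 changes were 0.88, 1.29, 1.71 and 0.62 (adjusted p = 0.00375, 0.000362, 2.07e-05 and 0.0265). The call in NICD4 was lost without EV replicate 1 or 2 or NICD4 replicate 1 or 3 (adjusted p = 0.0576 to 0.142), under total read count scaling (0.10) and with the GC trend removed (0.28). Under total read count scaling the call in NICD1 was lost too (0.45, adjusted p = 0.0744). Of 5 tested genes listed as CD24 partners or adhesion receptors, 3, 3, 4 and 2 were called higher and 1, 0, 1 and 2 lower. These counts under total read count scaling were 0, 3, 2 and 0 higher and 1, 2, 1 and 3 lower. CAV1, which encodes caveolin of the same membrane rafts, was called higher in NICD1, NICD2 and NICD3 (223, 303 and 299 CPM, against 157 CPM in EV) and lower in NICD4 (101 CPM). Under total read count scaling the call of CAV1 in NICD1 was lost (0.04, adjusted p = 0.778).

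ALDH1A3 (chromosome 15, 101402129 to 101456831 on GRCh37) encodes an aldehyde dehydrogenase that oxidises retinal to retinoic acid, the ligand of the RAR receptors. Its mean was 3.15, 3.28, 4.39 and 2.64 times the EV level in NICD1 to NICD4. The EV libraries were at 21.2, 22.1 and 21.2 CPM. Those of NICD1 were at 63.5, 67.2 and 73.4 CPM and those of NICD2 at 69.4, 75.1 and 67.2 CPM. Those of NICD3 were at 91.9, 94.0 and 98.1 CPM and those of NICD4 at 53.9, 59.7 and 57.1 CPM. Every NICD library was above every EV library, and the NICD3 libraries were above all others. The log2 changes were 1.66, 1.71, 2.14 and 1.40 (standard error 0.0742), with adjusted p-values of 2.29e-10, 1.95e-10, 1.72e-11 and 1.12e-09. Without NICD4 replicate 1 the change in NICD4 was 1.44. In NICD3 the rise exceeded that of 97.7% of all genes tested, and in NICD4 that of 86.4%. NICD3 was above NICD1 by 0.48 (adjusted p = 0.000951), above NICD2 by 0.42 (adjusted p = 0.00146) and above NICD4 by 0.74 (adjusted p = 1.03e-05), and the difference from NICD2 was 0.29 (adjusted p = 0.0989) under total read count scaling. NICD1 and NICD2 overlapped and did not pass the test. NICD4 was below NICD1 by -0.26 (adjusted p = 0.0209), a call lost without NICD1 replicate 3, NICD4 replicate 1 or NICD4 replicate 3 (adjusted p = 0.107, 0.0718 and 0.052). That call was also lost without the filter on low counts (adjusted p = 0.0682) and when only those groups were fitted (adjusted p = 0.126). Under total read count scaling the changes against EV were 1.20, 1.43, 1.72 and 0.86, all called. With the GC trend removed they were 1.57, 1.64, 2.05 and 1.31, below those of ALCAM (1.99 and 1.98) in NICD1 and NICD4.

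The other 2 enzymes of the ALDH1A family were nearly absent. ALDH1A1, the enzyme behind much of the aldehyde dehydrogenase activity used for sorting, had 1, 1 and 0 reads in the EV libraries, 1 read in 1 library each of NICD1 and NICD3, and none in NICD2 and NICD4. A count of 0 allows up to 0.05 CPM for NICD2 and 0.0818 CPM for NICD4, taking 3 reads over the group. ALDH1A2 had 0 to 2 reads a library. Of the 3 ALDH1A genes, only ALDH1A3 had more than 2 reads in any library.

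The list of the aldehyde dehydrogenase family and retinoid metabolism has 29 tested genes and holds ALDH1A3 itself. Of these, 15, 12, 16 and 17 were called higher and 9, 9, 9 and 7 lower, with medians of 0.31, 0.08, 0.38 and 0.66. The medians were -0.14, -0.20, -0.04 and 0.11 under total read count scaling. STRA6, the membrane receptor that takes up retinol, rose from the EV level of 0.464 ± 0.059 CPM to 1.62, 2.49, 9.34 and 2.76 CPM. DHRS3, which returns retinal to retinol, rose from 3.89 ± 0.25 CPM to 64.5, 18.2, 54.0 and 26.4 CPM. ALDH3A1 and ALDH3B1, which oxidise other aldehydes, rose in all 4 groups. ALDH3A1 was at 0.350 CPM in EV and 4.49, 0.708, 3.37 and 2.13 CPM in NICD1 to NICD4, and ALDH3B1 at 6.36 CPM and 36.4, 20.3, 29.1 and 31.6 CPM. ALDH1L1, an enzyme of folate metabolism and also an astrocyte marker, went in opposite directions: from 1.51 ± 0.25 CPM in EV it fell in NICD1 and NICD2, to 0.652 and 0.367 CPM, and rose in NICD3 and NICD4, to 30.0 ± 2.0 and 6.0 ± 1.3 CPM. STRA6 and ALDH1L1, like ALDH1A3, had their highest mean in NICD3. Closest to ALDH1A3 in pattern were PRSS16 (r = 0.99), PLAU (r = 0.99) and FGF9 (r = 0.99). PLAU, which encodes the protease urokinase, was at 14.8 CPM in EV and 90.3, 77.0, 121 and 64.0 CPM in NICD1 to NICD4, and FGF9, a growth factor, at 0.229 and 3.92, 5.38, 9.55 and 3.23 CPM.

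PROM1 (chromosome 4, 15964699 to 16086001 on GRCh37), the gene of CD133, had 0, 4 and 3 reads in the EV libraries. It had 1, 0 and 2 reads in NICD1, 2, 2 and 1 in NICD2, 0, 0 and 1 in NICD3, and 1, 0 and 0 in NICD4. Every group overlapped EV. Set against EV, the ratio was 0.727 for NICD1 (exact 95% interval 0.121 to 3.19) and 0.959 for NICD2 (interval 0.24 to 3.51). It was 0.177 for NICD3 (interval 0.00393 to 1.38) and 0.314 for NICD4 (interval 0.00697 to 2.44), and no difference was detectable at this depth. These intervals cover counting error only. PROM2, its paralog, which also sits on membrane protrusions, was tested and rose from the EV level of 0.433 ± 0.026 CPM to 4.59 ± 0.50, 1.22 ± 0.28, 3.40 ± 0.77 and 3.01 ± 0.29 CPM. Of 8 tested genes of the prominin and microvillus list, 5 were called higher in each NICD group and 1, 0, 1 and 0 lower. Among them ESPN, which bundles actin in microvilli, rose from 13.2 CPM to 77.4, 51.5, 45.5 and 96.3 CPM, and EZR, which encodes ezrin, a linker of CD44 and other surface proteins to actin, rose from 682 ± 8.2 CPM to 1538, 1305, 1408 and 1884 CPM. VIL1, of the same list, was called lower in NICD1 and NICD3 (0.420 and 0.227 CPM, against 0.933 CPM in EV). It did not pass the test in NICD2 and NICD4 (adjusted p = 0.447 and 0.0828).

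CEACAM6 (chromosome 19, 42259329 to 42276113 on GRCh37) encodes a lipid-anchored adhesion protein of the carcinoembryonic antigen family. It had no read in the 3 EV libraries or in the 3 of NICD3, 1 read in NICD1 replicate 2, 1 in NICD2 replicate 2, and 3, 1 and 0 reads in NICD4. A count of 0 allows up to 0.0372 CPM in EV and 0.0461 CPM in NICD3. Without the filter on low counts, the change of CEACAM6 in NICD4 against EV was 1.24 (limma, adjusted p = 0.0446), and it did not pass the test in NICD1, NICD2 or NICD3 (adjusted p = 0.566, 0.741 and 1). That call rests on 4 reads, and 3 of them came from replicate 1, whose labels disagree. CEACAM1 and CEACAM5 were at 0 to 7 and 0 to 1 reads a library and were not tested either. Of the family, CEACAM19 was tested and rose from the EV level of 2.41 ± 0.035 CPM to 6.07, 7.07, 5.77 and 9.92 CPM. Among 10 tested genes of the CEACAM family and other lipid-anchored surface proteins, 6 were called higher in each group and 2, 1, 2 and 3 lower. Scaled by total read count, 5, 4, 3 and 5 were called higher and 4, 2, 4 and 4 lower. CD55, which protects cells from complement, was called lower in NICD1, NICD3 and NICD4 (20.7, 17.2 and 12.1 CPM, against 31.4 CPM in EV). Its call in NICD1 (adjusted p = 0.0128) was lost with the GC trend removed (adjusted p = 0.435) and without NICD1 replicate 2 (adjusted p = 0.0802).

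**Figure D3:**
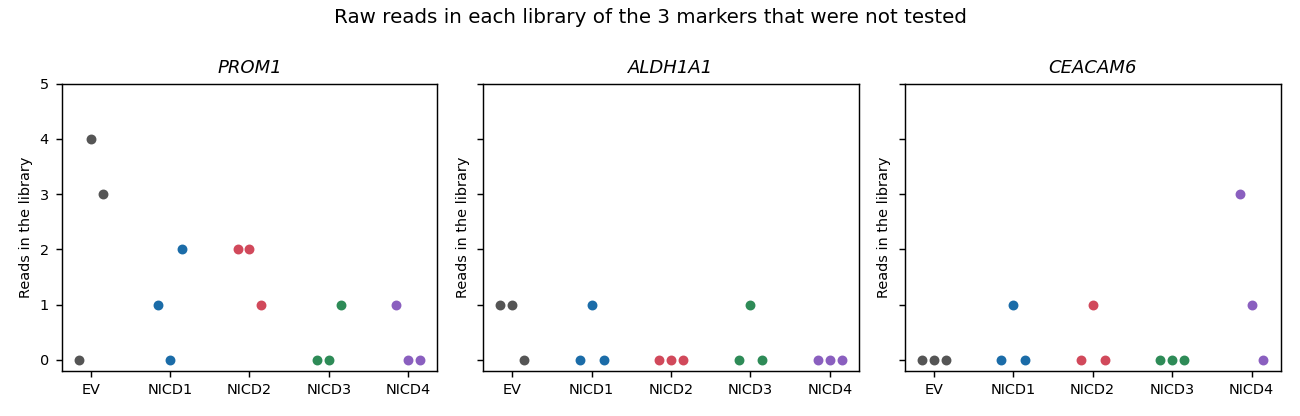
Reads (vertical axis, raw counts) of PROM1, ALDH1A1 and CEACAM6 in each of the 15 libraries (points). No library has more than 4 reads of any of the 3 genes, and all groups include a library with 0 or 1 read.

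Levels of different genes are comparable only per length of transcript. In EV, EPCAM was at 60.5 CPM per kilobase of exons, CD9 at 20.0, CD44 at 4.19, ALDH1A3 at 3.72 and ALCAM at 2.16. In NICD4, EPCAM (59.9 CPM per kilobase) stayed first, while ALDH1A3 (9.85) and CD9 (9.10) came to similar levels. In NICD1, ALDH1A3 and CD44 reached 11.8 and 11.7 CPM per kilobase.

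Set directly against each other, NICD2 and NICD1 differed in 2 of the 5 markers (CD44 and EPCAM), where 37.2% of all genes were called. NICD3 and NICD1 differed in 3 (CD44, ALCAM and ALDH1A3), where 6.72% of all genes were called. NICD3 and NICD2 differed in 2 (CD44 and ALDH1A3), against 15.0% of all genes. NICD4 differed in 4 of 5 from each of NICD1 (27.2% of all genes), NICD2 (63.5%) and NICD3 (49.0%), ALCAM being the marker not called in all 3. Without NICD4 replicate 1 these counts were 3, 4 and 3, and the share of all genes called in that fit is not given. With the GC trend removed ALCAM was called higher in NICD4 than in NICD2 (0.53) and NICD3 (0.47, adjusted p = 0.011), and under total read count scaling it was called lower in NICD4 than in NICD1 (-0.29, adjusted p = 0.0431).

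Genes of the wider marker lists moved in both directions. Of 15 tested crypt base stem cell markers, a list that holds CD44 itself, 7, 5, 5 and 7 were called higher in NICD1 to NICD4 and 5, 4, 3 and 6 lower, with medians of 0.26, 0.07, -0.03 and 0.29. Scaled by total read count, 5, 4, 3 and 6 were called higher and 7, 6, 9 and 7 lower, with medians of -0.11, -0.22, -0.44 and -0.25. SOX9, a transcription factor of crypt progenitors, rose from the EV level of 16.4 ± 0.98 CPM to 51.9, 78.4, 49.0 and 61.2 CPM. EPHB3, a receptor that positions cells in the crypt, rose from 1.58 CPM to 5.90, 4.36, 4.89 and 9.99 CPM. RNF43, a WNT-induced ubiquitin ligase, was at 8.35 ± 0.84 CPM in EV and fell in NICD1, NICD3 and NICD4, to 0.556, 0.663 and 0.320 CPM. It was at 4.93 ± 0.40 CPM in NICD2 (adjusted p = 0.134), where its libraries lay below those of EV. The fall in NICD2 was called with voom weights (-0.77, adjusted p = 0.00176), when only those groups were fitted (adjusted p = 0.000813), with 5 added in place of 1 (adjusted p = 0.0429) and without NICD3 replicate 1 (adjusted p = 0.017). BMI1, a Polycomb protein, fell from 57.9 ± 5.9 CPM to 17.2, 26.6, 20.7 and 14.3 CPM. LGR5, ASCL2 and SMOC2, named here after their values were seen, had 0 to 1, 0 to 2 and 0 to 1 reads a library, so the defining markers of the crypt base stem cell were at or near 0 in every group.

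Of 19 tested genes used as other surface markers of tumour-initiating cells, 9, 8, 9 and 9 were called higher and 7, 6, 8 and 9 lower, and under total read count scaling 8, 8, 7 and 7 higher and 9, 7, 10 and 10 lower. ITGB4, an integrin of hemidesmosomes, was at 23.3 ± 2.0 CPM in EV and rose in NICD1, NICD3 and NICD4, to 126, 72.9 and 53.0 CPM. It was at 26.7 ± 2.9 CPM in NICD2 (adjusted p = 0.181), where removal of the GC trend gave a log2 change of -0.21. Its call in NICD4 was lost with the GC trend removed (0.11, adjusted p = 0.19). ABCG2, the drug efflux pump of side population cells, rose from 0.0810 CPM to 2.07, 2.17, 2.30 and 1.42 CPM, and CXCR4, a chemokine receptor, from 0.170 CPM to 1.28, 1.25, 1.59 and 1.51 CPM. DPP4 (CD26), a surface peptidase, had 1 read in EV and 31, 67, 101 and 24 reads in the NICD groups, a ratio of 125 in NICD3 (exact 95% interval 21.9 to 4990). DCLK1, a kinase of intestinal tuft cells, fell from 54.5 ± 0.57 CPM to 8.76, 25.6, 16.6 and 21.4 CPM, and ENG, the TGF-beta co-receptor endoglin, from 4.72 CPM to 1.07, 0.753, 1.17 and 2.08 CPM.

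**Figure D4:**
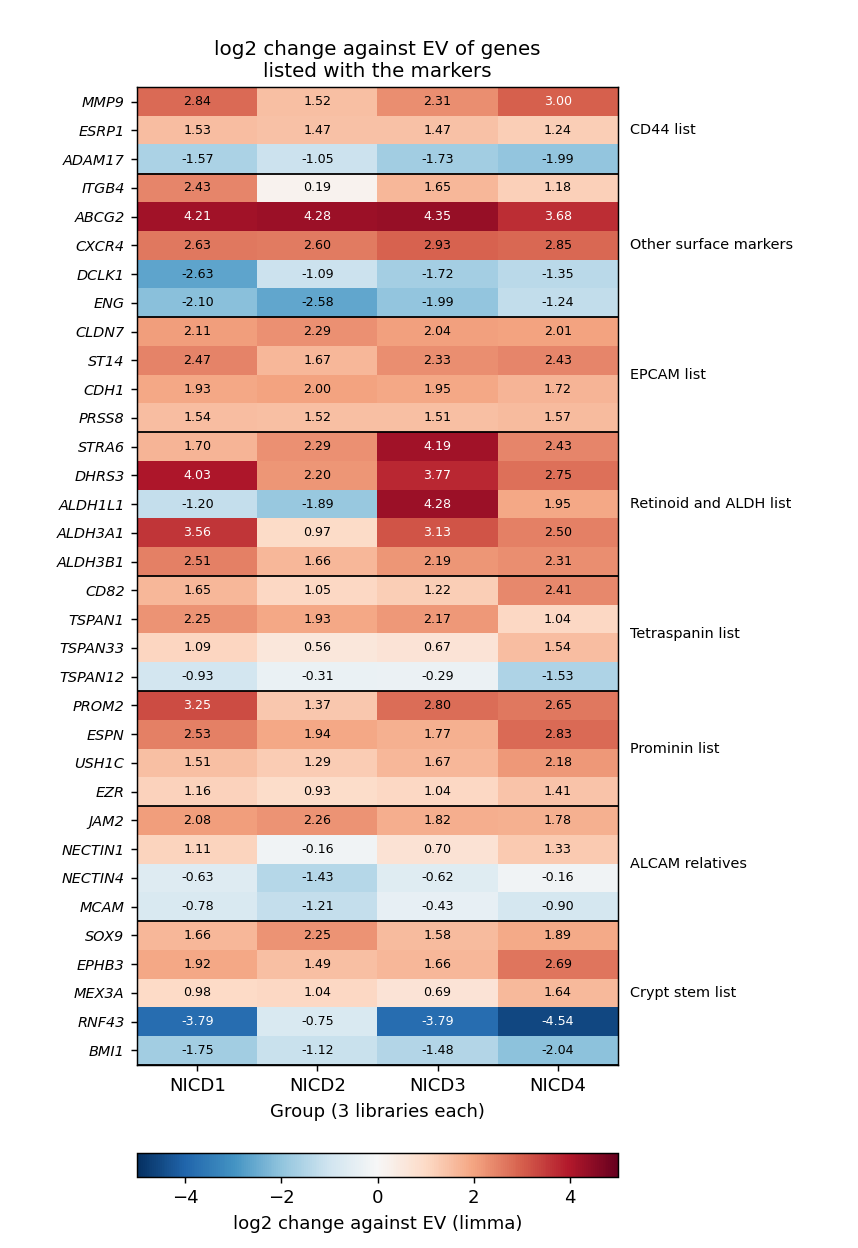
Fitted log2 change against EV (colour and printed value) in NICD1 to NICD4 for some genes of the lists described with each marker. VIL1, ESRP2 and genes with fewer than 4 reads in a whole group are among those left out. ST14, CLDN7, CDH1 and PRSS8 are higher in all 4 groups, DCLK1 and BMI1 are lower in all 4, and ALDH1L1 changes sign between NICD2 (-1.89) and NICD3 (4.28).

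The choice of scaling moved all changes against EV together. Scaling by total read count shifted the median change of all genes by -0.45, -0.28, -0.41 and -0.54 in NICD1 to NICD4, and the share of called genes that were higher went from 47.2%, 49.7%, 47.8% and 46.2% to 28%, 29.9%, 26.7% and 29.2%. The changes of ALDH1A3 and ALCAM kept their direction and call in all 4 groups under every scaling tried, as did CD44 in NICD1 and NICD2, EPCAM in NICD2 and CD9 in NICD4. Changes across all genes also rose with the GC content of the transcript, with Pearson's r of 0.36, 0.22, 0.31 and 0.44 over 14737 genes, which are not independent of each other.

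**Figure D5:**
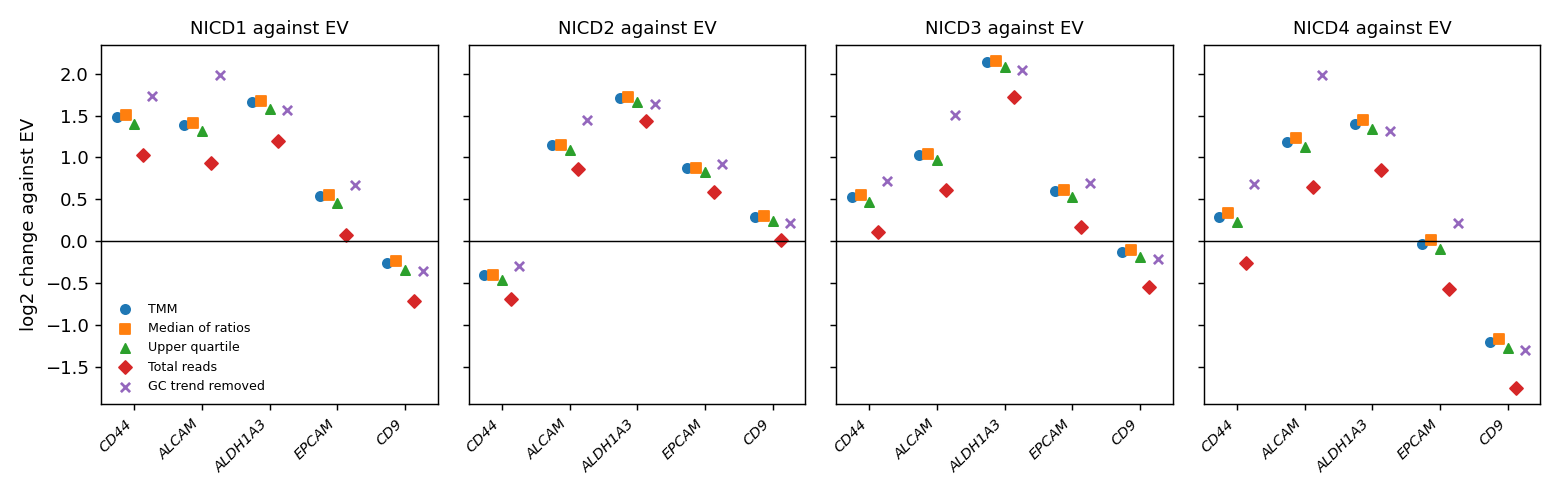
Log2 change against EV (vertical axis) of the 5 tested markers under 4 library scalings and with the trend of change with GC content removed. Scaling by total reads (red diamonds) lies lowest for each marker, and it moves CD44 in NICD4 from 0.29 to -0.25, while ALCAM and ALDH1A3 stay above 0 in every panel.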

How the data were processed

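RNA was measured in 15 libraries, 3 in each of 5 groups taken from the sample titles. Per the submitters' processing notes, reads were handled with TopHat2 2.0.6 and HTSeq on GRCh37. The settings, the gene annotation and the treatment of vector reads are not given in the sources used here, and strandedness is not stated. The deposited values are log2 of the read count plus 1, with no scaling to depth, per the file headers. Read counts recovered from them were whole within 0.001 for 100% of values, and the largest departure was 0.00076. Symbols were found for 29524 of 31352 gene identifiers.

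From these reads, TMM factors were computed in R 4.3.3. Genes with at least 0.548 CPM (10 reads at the median depth) in 3 libraries and 15 reads in all were tested. In limma 3.58.1, log2 of the scaled count plus 1 was fitted with a mean for each group, all 15 libraries sharing a trended, robust prior (statmod 1.5.0). The added 1 equals 0.0544 CPM and shrinks the changes of genes near that level. The p-values are two-sided and adjusted by Benjamini and Hochberg over the 15122 genes of each comparison. The fit was tested on simulated data. Depth was 11630195 to 27704492 reads, and limits for a count of 0 take 3 reads over a group and cover counting error only.

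The markers, the gene lists and the alternatives were chosen with earlier results of these data known. Beside the markers, at most 6 genes a list were named, those with the largest change against EV in any NICD group, plus close paralogs, and for each tested marker the 3 genes with the highest correlation among tested genes whose mean log2 CPM reached 1. Genes of the cell type lists and HES1 were given as checks. Some listed genes are not reported here. Replicates of a group differed beyond sampling noise (chi-square of 1.29 to 42.0 per gene), so none was merged.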

Additional observations from a re-analysis of the deposited data

Results flagged for a closer look

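CD44 was called in opposite directions against EV in different NICD groups, and the direct comparisons of those groups passed the test. NICD2 was below NICD1 by a log2 difference of -1.89 (standard error 0.0893, adjusted p = 5.34e-09 in limma), with all 3 NICD2 libraries below all 3 NICD1 libraries. NICD3 was above NICD2 by 0.94 (adjusted p = 5.37e-06) and NICD4 above NICD2 by 0.70 (adjusted p = 3.26e-05), in 3 of 3 libraries each, the latter difference being 0.81 without NICD4 replicate 1. Under total read count scaling, the difference of NICD4 from EV was no longer positive, as given with the levels of CD44. These groups have 3 libraries each, too few for a search for single outlying libraries.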

How the results depend on the processing

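The number of markers called against EV was within 1.5 times of 4 in each group under all alternatives run, other than NICD3 under total read count scaling, where it was 2. In that setting 3014 of the 15122 genes tested were called higher and 8258 lower. Among pairs of NICD groups, NICD3 against NICD2 fell to 1 under total read count scaling, and NICD4 against NICD1 to 1 when only those groups were fitted. NICD2 against NICD1 moved from 2 to 1 without the filter on low counts, to 4 with voom weights, and to 4 with the GC trend removed in a fit with a replicate block. It ranged from 1 to 4 when single libraries were left out. For the other counts of markers under alternatives, the share of all genes called is not given. Those counts therefore do not set the markers apart from other genes. With total read count scaling CD44 in NICD4 turned to -0.25. Removing the GC trend turned EPCAM in NICD4 to 0.22 and ITGB4 in NICD2 to -0.21, with or without the replicate block. The cause of these shifts was not tested. Replicate numbers gave no clear pairing of the libraries. Same-numbered libraries correlated above 0.1 in 13 of 30 pairs (median r 0.05, range -0.43 to 0.36). Libraries of different number did so in 19 of 60 pairs (median r -0.04, range -0.40 to 0.41). Of 15 libraries, 6 were closest to their own number. With the replicate block alone, the counts of markers called were 4, 4, 4 and 4 against EV in NICD1 to NICD4, as without it. Over the tested markers and the named genes, 87 of the values under an alternative lost a call, 43 gained a call and 5 turned sign with a call before or after. The other 6502 stayed on their side of the threshold, and 20 of these, uncalled both ways, changed sign. The depth limits PROM1, ALDH1A1 and CEACAM6 to counts of a few reads, and CD24 was not analysed here.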
